A study of Mus musculus with 40 samples.

Results

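Klf2, Klf3, Klf4, Klf5, Klf6, Klf9 and Klf10 are 7 genes of the Kruppel-like factor family, and they were followed here through the suppression of Pou5f1 and through changes of medium in mouse embryonic stem (ES) cells. The genes were chosen with earlier results of these data known. Every gene probe whose symbol, current or older, was one of the 7 was taken, whichever way it moved. They are 7 of the 14173 genes named on any design. The early design carried 12 of their probes among 42006 for genes, the late design 7 among 21052, and the design of the Nanog experiment 12 among 41006. Because designs share probes, these are 12 distinct sequences. The probe of a gene that is on all 3 designs carries the letter a, and a second one, on the larger designs only, the letter b.

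Each array compared a sample in Cy3 with Universal Mouse Reference RNA in Cy5, dyes were never exchanged, and each value is log2(Cy3/Cy5). ZHBTc4 ES cells (strain 129/Ola) lack their own Pou5f1 and live on a transgene that tetracycline (Tet) switches off. They were kept in complete medium with LIF, as the methods give it, and sampled before Tet (0 hr) and 3, 6, 12 or 24 hr into it with 2 arrays a time (early experiment, 10 arrays), and before Tet and every 24 hr up to 120 hr with 3 arrays a time (late experiment, 18 arrays). All samples of both experiments, those at 0 hr included, are of this 1 line, and a protocol kept with the late arrays describes another construct, whereas their titles and the study's methods give ZHBTc4. In the Nanog experiment (12 arrays), an episomal Nanog clone and its parental line MG1.19 (strain 129Sv), and the integrated Nanog clone Nanog/EF1#6 and the line ES 129.3, taken as its parent (both labelled strain 129SvEv-Tac), were each grown for 3 days in complete medium with LIF, without LIF, or with LIF and 1 µM retinoic acid (RA), with 1 array per line and medium. Each transgenic line is 1 clone. The integrated clone was set against ES 129.3 because the labels give both the same strain, whereas the methods call its parent MC1 and the series description names still other parents, so that the parentage of this pair is not settled. Nothing states that replicate arrays come from separate cultures, so p-values measure the spread between these samples.

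Kruppel-like factors are transcription factors with a conserved set of C2H2 zinc fingers at the carboxyl end, which bind GC-rich and CACCC sequences. Members differ outside the fingers, where some recruit activators and others the CtBP or Sin3 corepressors. In mouse ES cells Klf2, Klf4 and Klf5 are known as partly interchangeable supporters of self-renewal. Klf4 is a known target of the LIF, JAK and STAT3 pathway, Klf2 has been tied to Pou5f1, and Klf4 is one of the factors used to reprogram somatic cells.

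Sequences are shown for the probes that carry the values and for the promoters of the genes that fell furthest. The conserved linker between zinc fingers is encoded in many genes, so a probe over it could pair with other members. Only the probe Klf5-a held a linker motif, read as ACNGGNGANAANCC on the probe strand, and it is printed in full with the motif in capitals.

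Klf5-a: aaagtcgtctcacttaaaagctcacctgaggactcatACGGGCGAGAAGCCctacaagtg

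The motif stood in 32 of 45580 distinct probes (0.0702%). Klf5-b had no match and is a separate measure of the same gene. The other probes named most often below begin, over their first 30 of 60 bases, as follows.

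Klf2-a: aggatcgaggctagatgccttgtgagaaat
Klf2-b: gattgtatttctataagggagacgatggca
Klf4-a: gcatacttttgacaaggaaaatctagtttt
Klf4-b: ggtgcttggtgagttgtggtcctaaaggta
Klf6-a: agtttgaatgttttgtgtgtgaggagtata
Klf6-b: tttaatactaagcagtccattctggtcagg
Klf10-a: tgcacaatattttttgttgaactttatacc

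Klf10-a has a GC content of 25.0%, the lowest of the 12, and Klf4-b one of 53.3%, the highest. RefSeq promoters (GRCm38.p6, 250 bases before to 50 after the start) were on hand for 5 of the 7 genes, and those of Klf2 (chr8:72318812-72319111, plus strand) and Klf4 (chr4:55532426-55532725, minus strand) are printed 5′ to 3′ with GC boxes (GGGCGG, either strand) in capitals.

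Klf2: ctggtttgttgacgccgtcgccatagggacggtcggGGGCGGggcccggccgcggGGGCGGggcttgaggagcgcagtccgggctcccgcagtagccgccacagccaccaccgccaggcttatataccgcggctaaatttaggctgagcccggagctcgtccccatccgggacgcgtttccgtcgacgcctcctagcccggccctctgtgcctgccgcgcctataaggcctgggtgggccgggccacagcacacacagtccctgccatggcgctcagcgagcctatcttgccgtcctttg
Klf4: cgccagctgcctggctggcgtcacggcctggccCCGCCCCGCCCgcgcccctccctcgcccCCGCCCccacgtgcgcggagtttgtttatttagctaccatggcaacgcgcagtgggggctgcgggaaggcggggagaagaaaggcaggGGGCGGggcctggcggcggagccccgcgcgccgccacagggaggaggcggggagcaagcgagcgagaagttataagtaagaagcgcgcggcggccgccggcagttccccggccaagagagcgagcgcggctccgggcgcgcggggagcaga

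Klf2 held 2 GC boxes, Klf4 held 4, Klf3 held 6, Klf6 held 1 and Klf9 held 0. GC boxes were found in 35.7% of all 32851 promoters of this length. The letters CACCC, on either strand, occurred once in Klf2 and Klf9, 5 times in Klf3, and not in Klf4 or Klf6, against 57.5% of all promoters. TTCNNNGAA, the form bound by STAT factors, was found in Klf9 alone among the 5 (8.3% of all promoters), and ATGCAAAT, the octamer bound by POU factors, in none of the 5 (1.74%). These are matches of letters in this window and say nothing of binding.

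Of 390 member spots on the 40 arrays, 383 were measured, 7 were dropped as scanner outliers and 0 were saturated. Every measured spot was brighter than 95% of its array's negative controls at least, the dimmest exceeding that limit by 1.24 times. Tet lowered Pou5f1 by 2.18 on the log2 scale at 24 hr on the late arrays (limma adjusted p = 2.38e-10), but on the early arrays its change at 24 hr was −0.55, under 1.5-fold. As the cells differentiated, 9 of 10 measured trophoblast markers were higher at 120 hr of the late experiment, and their summed Cy3 signal went from 3766 to 5624 at 0 hr to 180600 to 192700. The summed signal of 8 ES cell markers went from 63220 to 64720 down to 6116 to 6876, with 6 of the 8 lower. A lower level in these samples can stand for fewer cells of a type or for less RNA per cell, which cannot be told apart.

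The late experiment asked what follows the loss of Pou5f1 over several days. A probe was called when its limma p, adjusted over all gene probes by Benjamini and Hochberg, was below 0.05 and the change from 0 hr at least 1.5-fold. Called members numbered 4 of 7 after 24 hr, when 7.62% of all gene probes were called, then 7 (10.3%) and 7 (14.4%) after 48 and 72 hr, and 6 (17.9%) and 6 (20.7%) after 96 and 120 hr. Klf2, Klf4, Klf5 and Klf10 were lower at every time, Klf6 was higher from 48 hr on, and Klf3 and Klf9 were called lower from 48 hr, in the case of Klf9 at 48 and 72 hr only.

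Among the factors tied to self-renewal, Klf2-a read 3.21, 3.26 and 3.28 at 0 hr, 2.00 and 1.98 after 24 hr (1 spot missing), 0.97, 1.09 and 1.17 after 48 hr, 0.03, 0.18 and 0.25 after 72 hr, and 0.12, 0.08 and 0.04 after 120 hr. Its arrays at 0, 24, 48 and 72 hr formed separate groups in falling order. Klf2-a changed by −1.26, −2.17, −3.10, −3.22 and −3.17 at the 5 times (limma adjusted p = 7.72e-16 at 120 hr), which at 120 hr is 8.98-fold. Between 48 and 72 hr it was the only one of the 7 called against the time before, at −0.92 with an adjusted p of 3.75e-08 by limma, where 2.73% of all probes were called. From 72 to 96 hr and from 96 to 120 hr 0 of 7 were called, with 3 at an unadjusted p below 0.05 in each (3745 and 3066 of all probes), against 1.35% and 0.58% of all called. These comparisons of neighboring times were chosen after the data had been seen.

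Klf4-a read 2.30 and 2.63 at 0 hr and 0.56 and 0.93 at 24 hr, with 1 spot missing at each. It then read −0.33, −0.26 and −0.13 after 48 hr, −0.95, −0.74 and −0.59 after 96 hr, and −0.64, −0.23 and −0.28 after 120 hr. Every array under Tet was below both of those at 0 hr. The changes of Klf4-a ran from −1.72 ± 0.16 (SE) after 24 hr over −2.71 and −2.99 to −3.23 after 96 hr, and ended at −2.85 (limma adjusted p = 2.97e-10). The step from 24 to 48 hr, at −0.98, was called, as for 6 of the 7 members and 3.38% of all probes, and no later step of Klf4-a was.

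Within the late experiment Klf5-a neared its low level sooner than Klf2-a and Klf4-a, and partly came back. It read 2.92, 3.06 and 2.88 at 0 hr, 1.27, 1.00 and 0.89 after 24 hr, 0.87, 0.85 and 0.84 after 72 hr and 1.45, 1.48 and 1.33 after 120 hr. Almost all of its change was there at 24 hr (−1.90 ± 0.10, SE, limma adjusted p = 2.74e-10), and the step to 48 hr was −0.21 (adjusted p = 0.168). From 72 to 120 hr Klf5-a gained 0.57, with a limma adjusted p of 0.000276, while the size stayed just under 1.5-fold. All 3 arrays at 120 hr still lay below those at 0 hr.

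Klf10, a gene induced by TGF-beta that is known to act as a repressor, read 0.06, −0.02 and 0.30 at 0 hr, −0.84, −0.78 and −0.92 after 24 hr, and −1.58, −1.64 and −1.71 after 72 hr. Its groups did not overlap with 0 hr at any time. Klf10-a changed by −0.96 ± 0.07 (SE) at 24 hr and by −1.53 at 120 hr (limma adjusted p = 4.83e-11).

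Klf6, widely expressed and known from epithelia and placenta, was the member that rose. Klf6-a read −0.97, −0.84 and −1.24 at 0 hr, −0.34, −0.32 and −0.69 after 24 hr, 0.83 and 1.06 after 48 hr on a pair of arrays and higher still on the third, and 1.68, 1.28 and 1.31 after 120 hr. No array under Tet overlapped with 0 hr. At 24 hr its change was 0.57 (limma adjusted p = 0.00456), under 1.5-fold, and it was 2.04 at 48 hr and 2.44 ± 0.14 (SE) at 120 hr, which is 5.43-fold. The step from 24 to 48 hr, 1.48, made up most of it. The trophoblast markers summed to 12100 to 16070 at 24 hr and 54930 to 57330 at 48 hr, and their part in the value of Klf6 was not tested.

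Klf3, a repressor that works through CtBP, read −0.46, −0.42 and −0.17 at 0 hr, −0.23, −0.08 and −0.21 after 24 hr, −1.52, −1.40 and −1.50 after 72 hr and −1.17, −1.18 and −1.30 after 120 hr. The arrays at 24 hr overlapped with 0 hr, and those from 48 hr on lay below. Klf3-a changed by −0.60, −1.12, −0.81 and −0.86 from 48 to 120 hr, all called by limma. At 48, 96 and 120 hr it fell short of 1.5-fold without background subtraction (−0.40, −0.53 and −0.57), and likewise on the authors' own values (−0.40, −0.53 and −0.57).

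Klf9, a repressor that answers to steroid and thyroid hormones, dipped and returned. It read 2.12, 1.76 and 2.05 at 0 hr, 0.70, 1.34 and 1.21 after 72 hr and 1.54, 1.95 and 1.95 after 120 hr. Only the middle of the course lay apart from 0 hr. Klf9-a changed by −0.82 after 48 hr and −0.89 ± 0.17 (SE) after 72 hr (limma adjusted p = 0.000462), and by −0.16 after 120 hr (adjusted p = 0.482). Without background subtraction both calls fell short of 1.5-fold (−0.51 and −0.55). The gain of 0.73 from 72 to 120 hr was called (adjusted p = 0.0047), as it was for 5.91% of all probes.

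**Figure D1:**
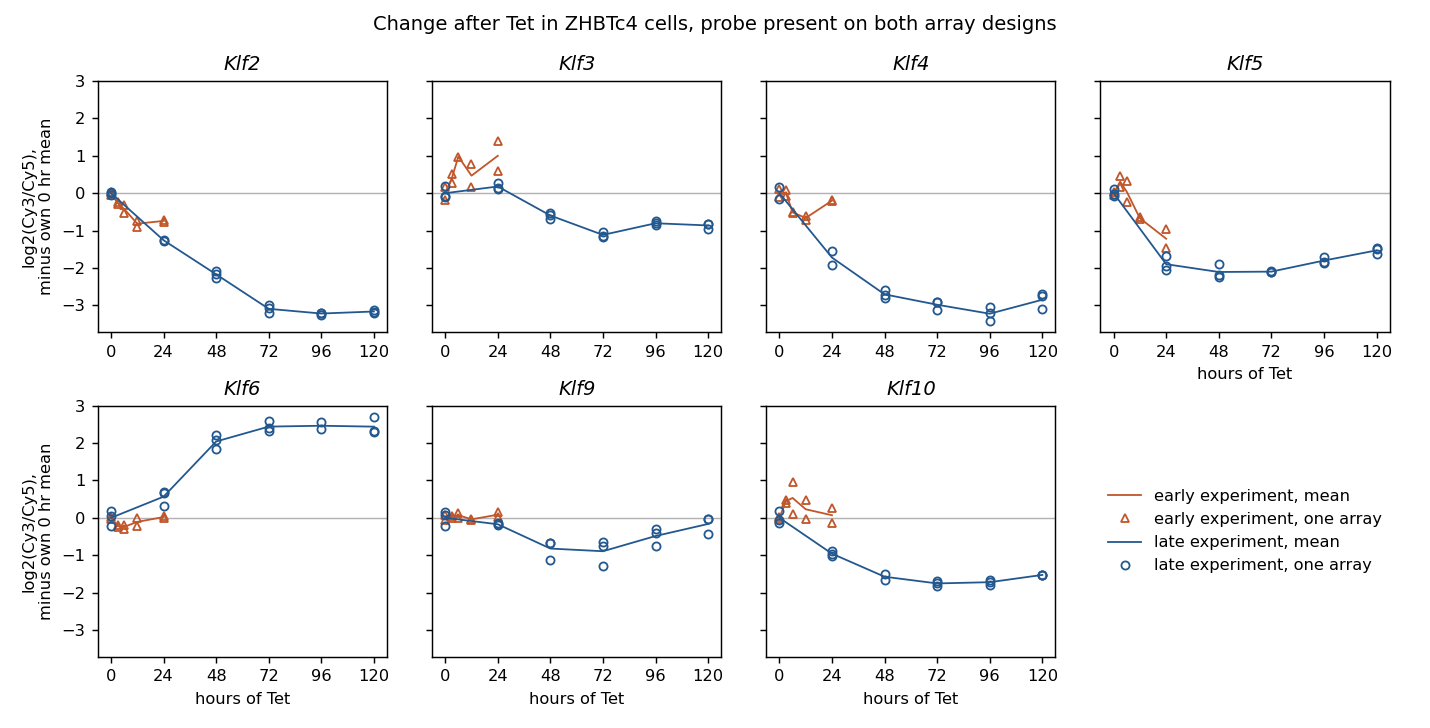
Change of log2(Cy3/Cy5) from the mean at 0 hr (y axis) against hours of Tet (x axis) for the probe of each member that both designs carry, 1 point per array and a line through the means of the early (2 arrays a time) and late (3 arrays a time) experiments. Klf2, Klf4, Klf5 and Klf10 end between −1.53 and −3.17 at 120 hr, Klf6 ends at 2.44, Klf9 returns to −0.16, and at 24 hr the late points of Klf4 and Klf10 lie below the early ones.

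The early experiment resolved the first day. At 3 hr 0 of 12 member probes were called, as were 0% of all probes, although 2 member probes, and 2650 of all, had an unadjusted p below 0.05 by limma. After 6 hr 2 of 12 were called (2.21% of all), after 12 hr 4 (0.593%), and 24 hr brought 7 (9.03%). Klf2 and Klf4 were the only members called before 24 hr, and all of these calls were of lower values, which 0.105% and 0.383% of all probes had at 6 and 12 hr. At 24 hr 6 of 11 trophoblast markers were called higher (7.05% of all probes) and 2 of 8 ES cell markers lower (1.98%), while the summed Cy3 signal of the ES cell markers went from 134700 to 134800 at 0 hr down to 58850 to 59600. Their part in the member values was not tested. With 2 arrays a time the early calls were easily lost: with any single array removed, 0 to 2 calls were left at 6 hr and 0 to 4 at 12 hr. At 6 hr each of the arrays at 0, 3 and 6 hr, left out alone, took the count to 0. At 12 hr it was 0 without either array at 0 hr or without replicate 2 after 12 hr, and 2 without either array after 3 hr. At 24 hr it was 3 or 4 without replicate 1 or 2 at 0 hr. With the error variance that the methods describe, 0 of 12 were called at each of these times. The share of all probes called under it is not given here, so the loss need not be particular to the members.

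The brighter probe of Klf2, Klf2-b, read 3.88 and 3.64 at 0 hr, 3.96 and 3.65 after 3 hr, 3.10 and 3.21 after 6 hr, 2.82 and 2.63 after 12 hr, and 2.97 and 3.08 after 24 hr. Arrays from 6 hr on lay below those at 0 hr. Klf2-a read 2.90 and 2.97 at 0 hr and 2.20 and 2.04 after 12 hr, and after 24 hr both probes stood at nearly the same change, −0.74 for Klf2-a and −0.73 for Klf2-b. Neither was called from 12 to 24 hr (0.07 and 0.30, limma adjusted p = 0.775 and 0.339). In Cy3 alone the change of Klf2-a from 0 hr was −1.03 at 12 hr and −1.10 at 24 hr. That of Klf2-b was −1.07 and −1.22. The Cy5 change went from −0.141 to −0.365 for Klf2-a and from 0.05 to −0.484 for Klf2-b. No member was called between neighboring early times, where 0.00238% (3 to 6 hr), 0.0667% (6 to 12 hr) and 1.25% (12 to 24 hr) of all probes were, while 4, 4 and 5 of the 12 had an unadjusted p below 0.05 by limma, as had 2917, 2428 and 6024 of all.

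Klf4-b read 0.90 and 0.72 at 0 hr, 0.02 and 0.19 after 6 hr, 0.04 and −0.20 after 12 hr and 0.34 and 0.02 after 24 hr. Klf4-a read 0.95 and 0.73, then 0.31 and 0.35, 0.23 and 0.13, and 0.66 and 0.63 at the same times. Both probes were at their lowest mean at 12 hr. At 24 hr Klf4-b was still called (−0.63, limma adjusted p = 0.0186) and Klf4-a was not (−0.20, adjusted p = 0.182), and the step of Klf4-a from 12 to 24 hr was 0.46 (adjusted p = 0.0601). In Cy3 alone it was the other way round, with Klf4-a called at −0.63 and Klf4-b, at −0.45, under 1.5-fold. From 12 to 24 hr the change of Klf4-a from 0 hr stayed at −0.64 and −0.63 in Cy3, while in Cy5 it went from −0.02 to −0.45.

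Klf5 was not called before 24 hr. Klf5-a read 3.56 and 3.48 at 0 hr, 3.28 and 3.85 after 6 hr, 2.89 and 2.82 after 12 hr and 2.05 and 2.56 after 24 hr. Klf5-b read 2.52 and 2.45, 2.96 and 3.08, 1.90 and 2.22, and 1.30 and 1.69. At 6 hr the arrays of Klf5-b lay above 0 hr (0.53, limma adjusted p = 0.0863) and those of Klf5-a overlapped with it (0.04), but in Cy3 alone both were lower (−0.38 and −0.35), and the Cy5 reference of Klf5-b changed by −0.82. At 12 hr neither was called (−0.67 and −0.43, adjusted p = 0.148 and 0.168), but both were with Cy3 alone (−1.08 and −1.10) and after correction of Cy5 bleaching (−0.95 and −0.83). At 24 hr both were called, where Klf5-a fell by 1.22 on the log2 scale and Klf5-b fell by 1.00.

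Klf3-a and Klf6-b were called higher at 24 hr. Klf3-a read 0.48 and 0.14 at 0 hr and 0.91 and 1.71 at 24 hr, a change of 1.00 ± 0.28 (SE, limma adjusted p = 0.0351). The Cy5 reference moved with it: in Cy3 alone the change was 0.17, in Cy5 alone −0.78, and after correction of Cy5 bleaching the value was −0.13 (adjusted p = 0.988). The index of bleaching given in the methods, a mean log10 Cy5 signal of 100 probes, was 3.30 and 3.31 on the arrays at 0 hr and 2.92 and 2.74 at 24 hr. Klf6-b read −1.23 at 0 hr (1 spot missing) and −0.43 and −0.75 at 24 hr (0.64, limma adjusted p = 0.0274), with −0.12 and −0.20 against −0.16 and −0.20 for Klf6-a, whose change was 0.02. In Cy3 both probes of Klf6 were higher, by 0.79 for Klf6-b and 0.55 for Klf6-a, and in Cy5 the changes were 0.07 and 0.45. Klf6-b is not on the late arrays. Klf9-a and both probes of Klf10 were not called at any early time. Klf9-a stayed between 2.83 and 3.05 on all 10 arrays, and Klf10-a ranged from 0.24 to 1.34. From 0 to 24 hr Klf10-a changed by −0.535 in Cy3 alone, under 1.5-fold, and by −0.538 in Cy5 alone.

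**Figure D2:**
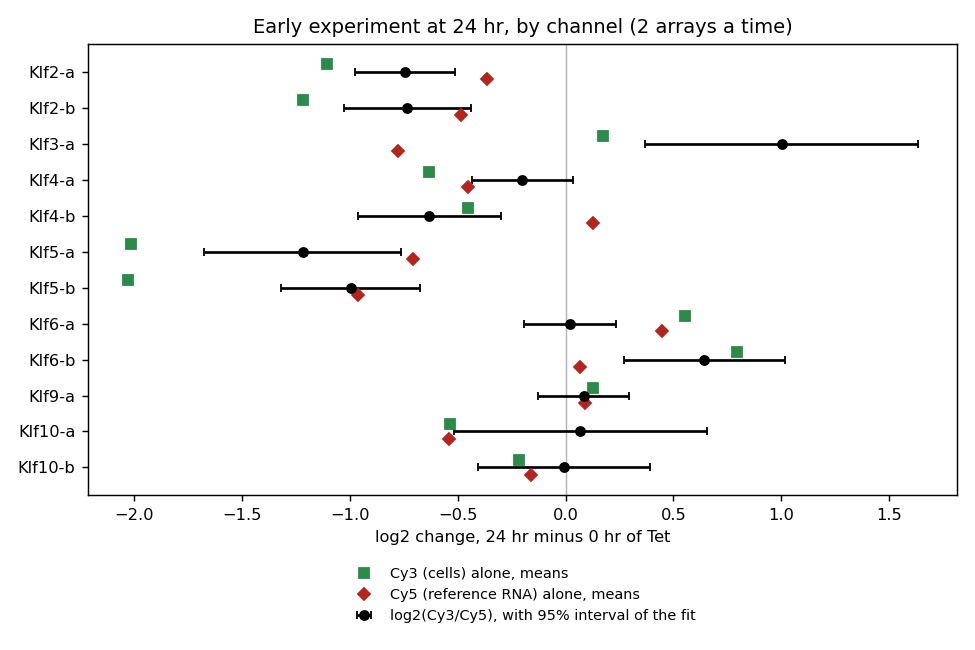
Change from 0 to 24 hr of Tet in the early experiment (x axis, log2) for each member probe (y axis), with the fitted log2(Cy3/Cy5) and its 95% interval as black points, and the change of means in Cy3 (cells) and Cy5 (reference RNA) alone as squares and diamonds. Klf5-a fell by 2.01 in Cy3 while the reference fell by 0.71, and for Klf3-a the reference fell by 0.78 while Cy3 moved by 0.17.

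Both experiments hold 24 hr of Tet, and 19163 probes have the same sequence on both designs. The difference of the changes, late minus early, was called for 3 of 7 members and for 14.4% of these probes, and the 3 members were lower in the late experiment, as were 9.69% of these probes. By limma Klf4-a differed by −1.52 (adjusted p = 0.00135), Klf10-a by −1.03 (adjusted p = 0.00245) and Klf5-a by −0.68 (adjusted p = 0.0415), the last of which lost the call without either early array at 0 hr, early replicate 2 at 24 hr, late replicate 1 or 2 at 0 hr, or late replicate 2 or 3 at 24 hr (0.0701 to 0.155), and was −0.23 after correction of Cy5 bleaching (0.586) and −0.39 without background subtraction. Klf2-a differed by −0.52 (adjusted p = 0.0132), under 1.5-fold. With Cy3 alone the difference remained called for Klf4-a and for no other member, with −0.36 for Klf10-a and −0.50 for Klf5-a. The mean of Klf4-a was 2.47 at 0 hr and 0.74 at 24 hr in the late experiment, and 0.84 and 0.64 in the early one. For this probe the ratios thus lay further apart at 0 hr than at 24 hr. In Cy3 alone its means were 13.36 and 11.60 late, and 12.95 and 12.31 early. Whether levels can be compared across designs was not tested. Experiment, array design and the array value of Pou5f1 differ together here and cannot be told apart.

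LIF withdrawal tested dependence on the cytokine that keeps ES cells undifferentiated, with the 4 lines as replicates and line as a block. Of 12 member probes 5 were called, against 1.04% of all probes, and all 5 were lower, as 0.532% of all were. Both probes of Klf4, both of Klf5 and Klf3-a made up these 5. With the larger error variance that the methods describe, 0 of 12 were called, and the share of all probes called under it is not given here. The summed Cy3 signal of the ES cell markers was 48520 to 70140 with LIF and 33940 to 41400 without, lower in every line, with 0 of 8 called. The feeder markers summed to 4788, 6213, 9866 and 32580 with LIF and to 11120, 11650, 17810 and 37550 without (episomal clone, integrated clone, MG1.19, ES 129.3), with 0 of 8 called, and 1 of 11 trophoblast markers was called higher. Their part in the member values was not tested.

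Klf4-b read 2.26 (episomal clone), 2.25 (integrated clone), 1.97 (MG1.19) and 0.73 (ES 129.3) with LIF, and −0.54, −0.46, −1.23 and −1.44 without it. Every array without LIF lay below every array with it. The change was −2.72 ± 0.18 (SE, limma adjusted p = 0.00128), or 6.58-fold, and that of Klf4-a was −2.75. Both probes kept the call when any 1 line was left out. In the parental lines alone the changes were −2.68 for Klf4-b and −2.80 for Klf4-a, and in the transgenic lines alone −2.75 and −2.69. None of these was called (limma adjusted p = 0.0708 to 0.166).

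Klf5-b read 2.12, 2.36, 1.84 and 1.85 with LIF and 1.16, 1.15, 0.95 and 1.20 without, in the same order of lines. These groups did not overlap either. Klf5-b changed by −0.93 and Klf5-a by −0.90, with limma adjusted p = 0.0236 and 0.0254, and both lost the call when the episomal clone, the integrated clone or MG1.19 was left out (adjusted p = 0.0815 to 0.236 for Klf5-b). Klf3-a changed by −0.65 with a limma adjusted p of 0.0497, at the edge of the threshold, and lost the call without any 1 of the 4 lines (0.0977 to 0.293).

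Klf2 did not follow as evenly. Klf2-b read 2.54, 4.24, 4.29 and 3.73 with LIF and 2.92, 3.17, 2.42 and 1.21 without, so that it was lower without LIF in 3 lines and higher in the episomal clone. By limma the change was −1.27 (95% interval −2.25 to −0.29, adjusted p = 0.2), and for Klf2-a −0.89 (adjusted p = 0.281). Klf6-a was higher in all 4 lines, by 1.67, 1.63, 0.65 and 0.38, and missed the threshold (1.08, adjusted p = 0.0641), which it passed without ES 129.3 (1.32, adjusted p = 0.0485). Klf10-a was lower in all 4 lines, and its change of −0.51 (adjusted p = 0.0473) was under 1.5-fold. Klf9-a moved by −0.04, with an interval from −0.46 to 0.37.

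RA on top of LIF gave another picture, with 5 of 12 member probes called against 5.87% of all probes. Of the 5, 3 were higher (4.64% of all) and 2 lower (1.23%). Klf6-b read 1.10, −0.51, 1.00 and 0.69 with RA, and −1.72, −1.92, −0.67 and −0.03 with LIF alone. Each line rose, and across lines the integrated clone with RA overlapped with the parental lines on LIF. The changes by limma were 1.65 for Klf6-b and 1.39 for Klf6-a, with adjusted p = 0.00569 and 0.00577, and Klf6-b lost the call without MG1.19 (0.0544).

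Klf3-a read 1.58, 0.98, 1.38 and 1.42 with RA and 0.29, −0.36, 0.74 and 0.64 with LIF alone, with no overlap, and rose by 1.01 ± 0.13 (SE, limma adjusted p = 0.00164). Klf4 was called lower on RA, at −0.91 for Klf4-b and −0.96 for Klf4-a. These calls were lost without the episomal clone (limma adjusted p = 0.056 and 0.0652) and without MG1.19 (0.0812 and 0.0865). Klf5-a and Klf5-b both changed by −0.51, under 1.5-fold. Klf2-b was lower on RA in all 4 lines, with differences of −0.85, −0.65, −2.48 and −1.87, but not called (−1.46, limma adjusted p = 0.0559). It was called with Cy3 alone (adjusted p = 0.0392) and without the episomal clone (0.0261).

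Against cells without LIF, those with LIF and RA had higher Klf4-a (1.78), Klf4-b (1.81), Klf3-a (1.66) and Klf10-a (0.65), 4 of 12 probes called where 5.77% of all were, and all 4 higher, as 4.08% of all were. Without ES 129.3 Klf10-a came to 0.58, just under 1.5-fold. The LIF and RA arms share arrays with these comparisons, so the 3 sets of values are not independent. Klf4-b with RA read 0.99, 1.83, 0.58 and 0.15, between its levels in the other media in every line. On RA 5 of 8 feeder fibroblast markers, 7 of 11 trophoblast markers and 4 of 7 primitive endoderm markers were called higher than with LIF, and the feeder markers summed to 21810 to 109000 in Cy3 signal against 4788 to 32580. Their part in the values of Klf6 and Klf3 was not tested.

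**Figure D3:**
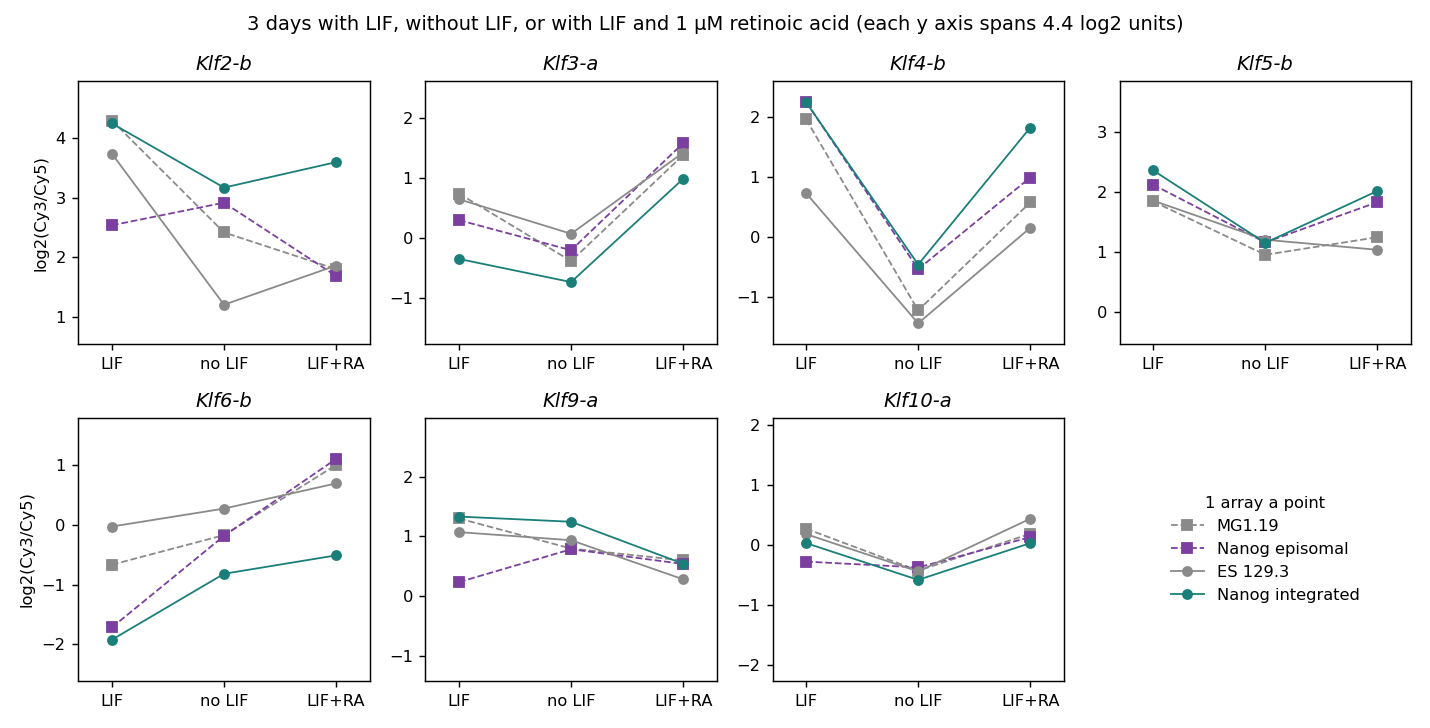
Value of log2(Cy3/Cy5) (y axis) in 3 media (x axis) for the brightest probe of each member, 1 point per array, joined within each of the 4 lines. Klf4-b drops without LIF in every line and lies between on RA, Klf6-b rises on RA in every line, and Klf2-b with LIF reads 2.54 in the episomal clone against 3.73 to 4.29 in the other lines.

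The Nanog transgene was compared over 6 pairs of a transgenic and a parental array, 3 pairs for each clone. By limma 0 of 12 member probes were called, although 6 of them, and 8096 of all 41006 probes, had an unadjusted p below 0.05. Of all probes 2 (0.00488%) were called. Klf4 came nearest. Klf4-b was higher than in the parental line in 6 of 6 pairs, by 0.29, 0.69 and 0.42 for the episomal clone (LIF, no LIF, RA) and by 1.52, 0.98 and 1.68 for the integrated clone. Its mean difference was 0.93 (95% interval 0.47 to 1.39, adjusted p = 0.0858), and that of Klf4-a was 0.94 (adjusted p = 0.0916).

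Within the integrated clone alone, 4 of 12 member probes were called and 4.58% of all probes. Klf4-a and Klf4-b were higher, as 1.81% of all were (1.40 and 1.39, limma adjusted p = 0.00785 and 0.00394), and Klf3-a and Klf6-b lower, as 2.77% were (−0.75 and −1.40, adjusted p = 0.032 and 0.0201). The other probe of Klf6, Klf6-a, was not called there (−0.93, limma adjusted p = 0.131). In the episomal clone Klf6-a changed by 0.29 and Klf6-b by −0.32. Within the episomal clone 0 of 12 were called, with 2 at an unadjusted p below 0.05 (4535 of all), and 0% of all were called. The difference between clones was itself called for 0 of 12 member probes by limma (7 with an unadjusted p below 0.05, and 5249 of all) and for 0.783% of all, so the clones are not shown to differ in these genes. Klf2-b differed in each integrated pair by 0.51, 1.96 and 1.73, and in the episomal pairs by −1.75, 0.50 and −0.11.

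The line taken as parent of the integrated clone stood apart with LIF. On that array of ES 129.3 the feeder markers summed to 32580, against 4788 to 9866 on the other 3 arrays with LIF, and the trophoblast markers to 35260, against 7858 to 17020. With LIF, Klf4-b was lowest (0.73) and Klf6-b highest (−0.03) in that line. The part of these markers in the 4 calls of the integrated clone was not tested. Differences were in the same direction without LIF and with RA, where Klf6-b differed by −1.09 and −1.20 and Klf4-b by 0.98 and 1.68. In these media too the marker sums of ES 129.3 exceeded those of the integrated clone. Feeder markers summed to 37550 against 11650 without LIF and 109000 against 21810 with RA, and trophoblast markers to 32640 against 13660 and 81690 against 39820. Nanog itself was called higher in the integrated pairs (0.75) and not in the episomal ones (−0.57, adjusted p = 0.38), so that this probe does not bear out the label of the episomal clone, and whether it reads the transgene is not known here.

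Whether the response to medium depended on the transgene was asked after the data had been seen. By limma 0 of 12 member probes and 0% of all were called for either medium, with 4 members at an unadjusted p below 0.05 without LIF (2252 probes in all) and 2 with RA (2701). Klf6-a had the smallest of these. It rose without LIF by 1.67 and 1.63 in the transgenic lines and by 0.65 and 0.38 in their parents, a difference of 1.13 (95% interval 0.83 to 1.43, adjusted p = 0.77), and with RA the difference was 1.20 (adjusted p = 0.61).

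**Figure D4:**
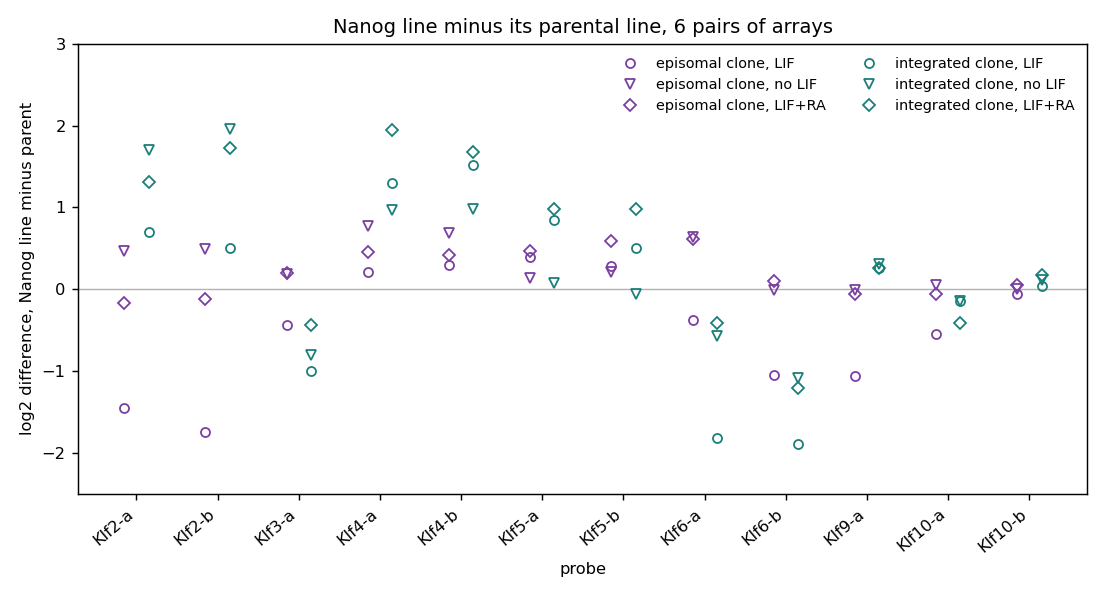
Difference of log2(Cy3/Cy5) between each Nanog line and its parental line (y axis) for each member probe (x axis), 1 point per medium and clone. Both probes of Klf4 lie above 0 in all 6 pairs, Klf6-b lies between −1.09 and −1.89 in the integrated clone, and the episomal pair with LIF is at −1.75 for Klf2-b and −1.06 for Klf9-a.

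Other genes of the family, were counted from a list of 18, of which 13 were measured. At 120 hr 3 of the 13 were called higher (12.0% of all probes), led by Klf7 (1.47, limma adjusted p = 2.46e-12), and 1 was lower (8.62% of all), Sp1 at −0.78. The median change of the list was 0.00, that of all probes 0.00, and that of the 7 members −1.53. Members and list were chosen with earlier results of these data known, so this contrast is a description only. In the early experiment at 24 hr Klf8 was the 1 of 13 called, at −1.27. Without LIF Sp8 was higher (1.13), on RA Klf7 and Sp8 were (0.96 and 0.81), and in the integrated clone Sp5, a target of Wnt signaling, was lower (−3.05), and so was Sp8 (−0.93).

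Of 16 genes of LIF signaling 14 were measured. Without LIF 5 were called lower and 0 higher, where 0.532% of all probes were lower and 0.505% higher. They were Socs3 (−2.62), the feedback inhibitor of the pathway, the transcription factors Tfcp2l1 (−2.14), Tbx3 (−1.47) and Gbx2 (−1.11), and the kinase gene Pim3 (−0.72). The median of the list was −0.20, beside −0.77 for the 12 member probes and 0.01 for all probes. At 120 hr of the late experiment 5 were lower (8.62% of all) and 3 higher (12.0%), among them Jak1 (1.57) and Jak2 (1.67). In the integrated clone Tbx3 (2.41) and Tfcp2l1 (1.32) were the ones called higher, as 1.81% of all probes were.

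Of 14 pluripotency factors 11 were measured on the late and Nanog arrays and 12 on the early ones. At 120 hr 9 were lower (8.62% of all probes), among them Sox2 (−4.25) and Nanog (−2.79), and the median was −2.07. Nanog was not yet called at 24 hr (−0.14, limma adjusted p = 0.415), when Klf2, Klf4, Klf5 and Klf10 were. At that time 4 of the 11 pluripotency factors were already called lower, as were 3.62% of all probes. Without LIF 3 were lower (Nr0b1, Nr5a2 and Tcl1, with 0.532% of all), on RA 7 were (1.23%), and in the integrated clone 5 were higher (1.81%), Nr0b1 by 2.08.

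The genes whose 6 late time means ran closest to a member's were found by Pearson's r among 2282 probes with a span of at least 1. They share arrays, and r over 6 means is a description. For Klf2 they were Sntb2 (0.999), Ildr1 (0.999) and Lama1 (0.999). For Klf4 they were Slc2a8 (0.998), Laptm4b (0.997) and Klf10 (0.995). For Klf5 Kdm4c (0.998), Pias2 (0.995) and Kat2b (0.993) came first, and for Klf6 Rbm38 (0.997), Aph1a (0.997) and Ldoc1 (0.996).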

How the data were processed

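Agilent Feature Extraction files of the 40 arrays, as deposited, hold mean, local background and processed signals in intensity units. The authors also deposited tables of normalized values in log10 units at the level of Cy3, 1 column of which counts as score values because it holds codes for missing cells. The authors' tables were used as an alternative only. From the mean signals, log2(Cy3/Cy5) was computed with limma 3.58.1 in R 4.3.3: outlier spots were dropped, normexp used an offset of 50, loess was run within arrays, and spots of a probe were averaged. Differences were fitted with lmFit and eBayes, two-sided, with adjustment over all gene probes of a design. The fits were tested on simulated data. Probes were named through accessions, identical probes on another design and the study's gene lists. Members and lists were chosen with earlier results of these data known. All member probes are described, and other family genes are named where called. List genes are represented by their brightest probe. Alternatives covered background, normalization, the Cy5 reference, dim probes, error variance, fold threshold and left-out arrays, lines and pairs. The number of arrays limits the precision, and Sox2, shRNA and binding data were not analysed here.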

Additional observations from a re-analysis of the deposited data

Results flagged for a closer look

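Over 4 lines or 6 pairs, 36 sets of changes were tested for 1 value far from the rest by Dixon's ratio of gap to range, and 3 stood out, where chance flags about 1 in 20. All 3 rest on the episomal clone and share its 1 array with LIF, so they are not independent. On that array Klf9-a read 0.24, against 1.07 to 1.33 in the other lines with LIF. The Cy3 signal of this spot was 535.62, near the negative-control limit of 433.25. Klf10-a without LIF moved by −0.10 in that clone and by −0.61 to −0.70 in the other lines (ratio 0.858). Klf9-a on RA moved by 0.30 there and by −0.70 to −0.79 elsewhere (ratio 0.92), and without that clone the RA change of Klf9-a was −0.76 and called by limma (adjusted p = 0.00538). Klf9-a in the episomal pair with LIF differed by −1.06, against −0.06 to 0.31 in the other pairs (ratio 0.732). No cause was tested.

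Klf9-a was lower than the parental line in all 3 episomal pairs and higher in all 3 integrated ones. The episomal differences were −1.06 with LIF, −0.01 without and −0.06 with RA, so only the pair with LIF lay far below. Those of the integrated clone were 0.26, 0.31 and 0.26. The clones differed by 0.65 (limma adjusted p = 0.391), which was not called.

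At 24 hr of Tet the late and early experiments differed beyond the adjusted threshold of limma for Klf4-a (−1.52), Klf10-a (−1.03), Klf5-a (−0.68) and Klf2-a (−0.52), out of 43 differences between groups tested for members.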

How the results depend on the processing

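The late counts of called members stayed within 1.5 times under every alternative run. The early counts did not. At 6, 12 and 24 hr (2, 4 and 7 calls) the error variance of the methods gave 0, 0 and 0, and a 2-fold threshold 0, 1 and 2. At 6 hr Feature Extraction signals, no background subtraction, the authors' values (7 probes) and Cy5 bleaching correction each gave 0, and Cy3 alone gave 1. At 12 hr Feature Extraction signals gave 1. At 24 hr no background subtraction gave 4 and the authors' values 3 of 7. Klf3-a at 24 hr turned to −0.13 under the bleaching correction. Without 1 array at a time the ranges were 0 to 2, 0 to 4 and 3 to 7. For LIF withdrawal (5) no background subtraction gave 2, a 2-fold threshold 2, and the error variance, parental lines only and transgenic lines only 0 each. Without 1 line at a time the range was 2 to 5. For RA against LIF (5) the error variance gave 1, a 2-fold threshold 3, parental lines only 8, transgenic lines only 2, and 1 line left out 2 to 6. For RA against no LIF (4) the transgenic lines only gave 1. Integrated pairs alone gave 5 calls for the Nanog transgene, in their own fit. The difference at 24 hr (3) fell to 1 with the authors' values (4 probes) and 1 with Cy3 alone. These causes were not tested. With the authors' tables and the small subsets fewer probes or arrays were tested. Shares of all probes called under each alternative are not given, so these counts do not tell whether a change is particular to the members.

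Replicate numbers were not used to pair the arrays in the main fits. Residuals of same-numbered arrays correlated at −0.137 to 0.335 (early, median 0.119) and −0.43 to 0.748 (late, median 0.194). For arrays of different number the medians were −0.119 and −0.134. Residuals were taken from the mean of each time, so those of 1 time sum to 0. With 2 arrays a time the early values for different numbers therefore mirror those for the same number. With 3 arrays a time they are also pulled to the opposite sign, so this contrast is no separate result. What lies behind the correlation of same-numbered arrays was not tested. With the replicate number as a block the calls were 0, 2, 4 and 6 on the early arrays, where Klf6-b at 24 hr (0.58) was lost, and 4, 7, 7, 6 and 6 on the late arrays. Scan date as a block was not run, since each time series carries 1 date. Without the early 24 hr arrays, an alternative chosen after seeing the data, the calls at 3, 6 and 12 hr were 0, 2 and 4. Signals near the negative controls limit how far a fall can be followed, and 16.3% to 30.2% of gene probes on the late arrays lay below them.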
